A study of Mus musculus with 6 samples.

Results

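The 10 genes examined here encode enzymes that write, keep or remove DNA methylation, together with Polycomb repressive complex 2 (PRC2) proteins: *Dnmt1*, *Dnmt3a*, *Dnmt3b*, *Uhrf1*, *Tet1*, *Tet2*, *Tet3*, *Ezh1*, *Ezh2* and *Suz12*. They were chosen by name and by role, with earlier results of these data known, and were found by symbol among the 24190 Ensembl genes of the count table, where all 10 were listed. *Ezh1* and *Ezh2* are the alternative catalytic subunits of PRC2, whereas *Suz12* encodes a core subunit that holds the complex together and has no catalytic activity of its own. RNA was sequenced from MTO54, a mouse tumor organoid (MTO) line that the labels call parental. The labels give it as an AKP colorectal cancer (CRC) organoid, and all 6 samples carry this genotype. The 3 control samples were kept in complete stem cell medium. The 3 Folfiri samples received 5-fluorouracil (5FU; 50 μg/μl as the labels write it), which blocks thymidylate synthesis, with SN38 (100 nM), the active form of the topoisomerase I inhibitor irinotecan. Drug was added 2 days after dissociated cells were seeded and was left for 2 days by the labels, which are followed here, whereas a legend in the study gives a longer exposure. MTOs were established from genetically engineered mice, and every sample comes from the same organoid line, so that the values describe 1 genotype in culture without stroma. The study's description calls the samples of a group biological replicates, while the labels do not say how they were cultured apart, so p-values measure the spread between samples of this line only.

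DNA methylation in mammals sits mostly on cytosines followed by guanine (CpG sites). DNMT3A and DNMT3B place it on unmethylated DNA, DNMT1 copies it to the new strand behind the replication fork, and UHRF1 recruits DNMT1 to the half-copied sites. TET enzymes oxidize methylcytosine, and repair or further replication then returns plain cytosine. PRC2 methylates histone H3 on lysine 27 (H3K27), a mark that keeps developmental genes such as the *Hox* genes silent. Dividing cells depend on EZH2, while EZH1 is the form that persists in cells that have left the cycle, and the intestinal epithelium keeps its crypt program in part through both systems.

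Short promoter stretches are shown for *Dnmt1*, *Uhrf1*, *Suz12* and *Ezh2*, whose transcripts are known to follow the cell cycle. These are also the 4 genes with a match in the search described next, and the stretches were cut to include it. That each stretch holds a match therefore follows from the choice. RefSeq promoter windows of the GRCm38.p6 build, each running from 250 bases before to 50 bases after a transcript start, were found for all 10 genes. Forms of the E2F site, the element of many S phase promoters, were searched on both strands as TTTCCCGC, TTTGGCGC, TTTCGCGC and TTTGCCGC. At least 1 of these 4 words was present in 2.26% of all 32851 windows of 300 bases. By gene, 2.605% of all 27025 genes had a window with a word, and 4 of the 10 genes did, some of which have several windows. The stretches of 150 bases read 5′ to 3′ in the direction of transcription, and capitals mark the word (in *Dnmt1* its reverse complement). They lie at chr9:20952724-20952873 on the minus strand for *Dnmt1*, chr17:56304063-56304212 on the plus strand for *Uhrf1*, chr11:79992856-79993005 on the plus strand for *Suz12* and chr6:47595016-47595165 on the minus strand for *Ezh2*.
Dnmt1: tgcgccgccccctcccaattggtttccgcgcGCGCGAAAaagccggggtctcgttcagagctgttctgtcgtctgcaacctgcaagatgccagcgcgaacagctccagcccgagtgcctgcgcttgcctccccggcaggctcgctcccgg
Uhrf1: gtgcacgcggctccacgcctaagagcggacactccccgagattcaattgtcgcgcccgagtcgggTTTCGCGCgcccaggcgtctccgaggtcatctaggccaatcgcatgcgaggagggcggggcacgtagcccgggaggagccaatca
Suz12: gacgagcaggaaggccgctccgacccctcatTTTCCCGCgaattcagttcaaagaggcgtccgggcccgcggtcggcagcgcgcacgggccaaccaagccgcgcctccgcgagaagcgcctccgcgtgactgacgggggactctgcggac
Ezh2: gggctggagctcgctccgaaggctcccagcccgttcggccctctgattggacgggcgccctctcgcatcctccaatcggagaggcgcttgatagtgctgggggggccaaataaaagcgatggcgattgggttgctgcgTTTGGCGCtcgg
The word starts at base -219 from the transcript start in *Dnmt1* and in *Suz12*, at -185 in *Uhrf1* and at 3 in *Ezh2*, and the *Dnmt1* window holds a second word, TTTGGCGC, at base 33. For *Dnmt1* and *Uhrf1* the word is in only 1 of several annotated start windows, and the counts do not tell which start was used. The windows with a word hold 31 to 41 CpG sites, against a median of 7 over all windows. Windows of these genes without a word reach as high, with 57 in *Tet2* and 46 and 47 in *Dnmt3a*. A match describes these letters only and does not show that a factor binds there.

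Of the 14692 genes that passed the filter on low counts, 79.1% were called different between Folfiri and control by edgeR's quasi-likelihood test (adjusted p under 0.05). Of all tested genes 40.3% were higher and 38.8% lower, and in 81.4% the control and Folfiri samples did not overlap. The 9 methylation and PRC2 genes that passed the filter were all called, 3 higher and 6 lower, with no overlap between the groups in any of them, and *Tet1* did not pass it. With this background, being called is not by itself a result about these genes, and the size and direction of each change carry the description. Their median log2 fold change was -0.40, against 0.02 over all tested genes. Total counts ran from 22103591 to 30098210 per sample. Control sample 1 and Folfiri sample 3 stood apart from the other samples of their groups. The scaling between libraries matters for small changes: with scaling to total counts alone the median over all genes became 0.30, with 49.8% of all tested genes called higher and 28.9% lower. Under that scaling 3 of the 9 genes were called higher and 3 lower. Every count given below with total counts is to be read against those shares. In bulk RNA, fewer cells making a transcript and less of it per cell cannot be told apart. The levels below, in CPM (counts per megacount of the scaled library), use the trimmed mean of M-values (TMM) scaling of edgeR, and errors are SD over n = 3 samples unless named otherwise.

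**Figure D1:**
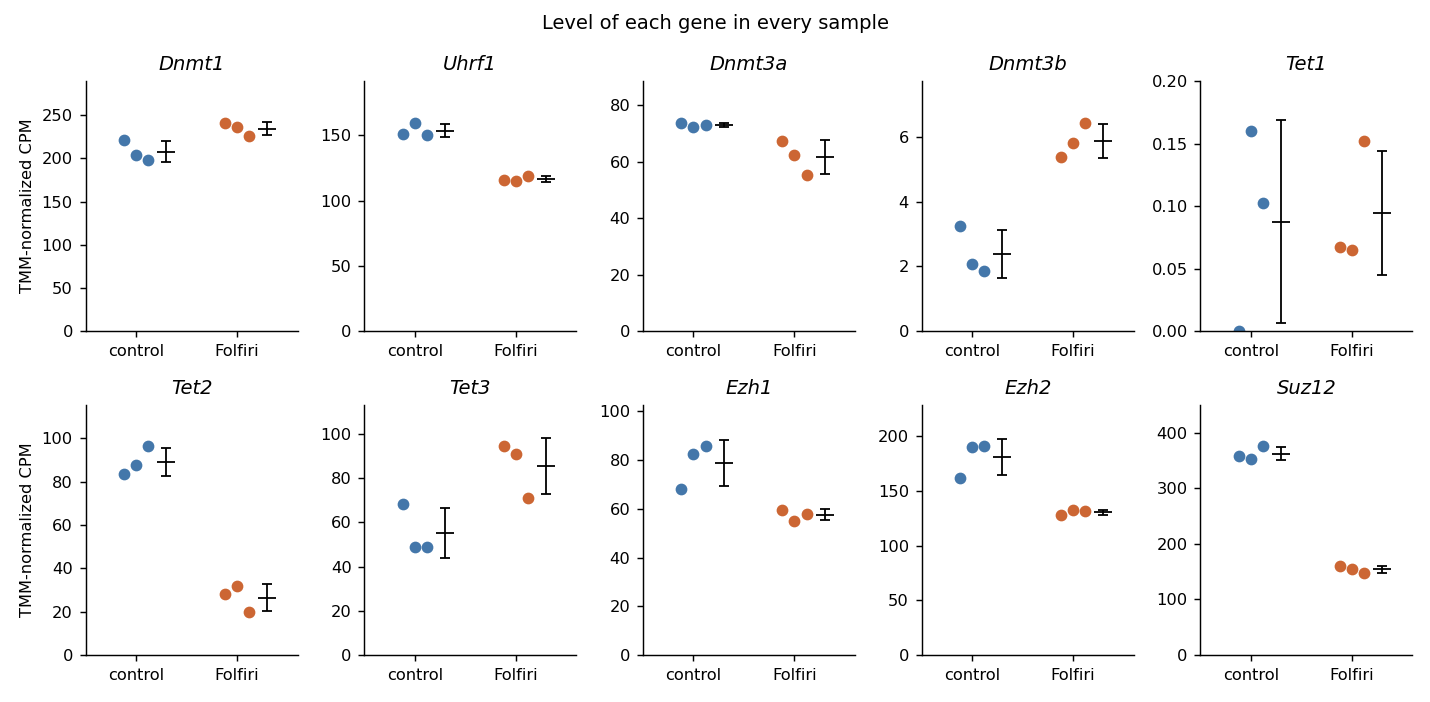
Level of each of the 10 genes in every sample, in CPM on a linear axis that starts at 0, with points for the 3 control and 3 Folfiri samples and bars for mean ± SD. The groups do not overlap in 9 genes, for example *Tet2* (control lowest 83.6, Folfiri highest 31.7 CPM), and *Tet1* lies near 0 in both.

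*Dnmt1*, the maintenance methyltransferase (ENSMUSG00000004099; GRCm38 chr9:20907209-20959888, minus strand), differed little between the groups. Its level was 221, 203 and 198 CPM in the control samples and 241, 236 and 226 CPM in the Folfiri samples. The ranges did not overlap, but the gap between the highest control and the lowest Folfiri sample was narrow beside the spread within each group. The mean went from 208 ± 12.2 to 234 ± 7.74 CPM, a log2 fold change of 0.17 (SE 0.07, 95% interval 0.01 to 0.33; edgeR adjusted p = 0.0450). This call is a marginal one, since it was lost in 4 of the 6 fits that left out 1 sample (without control 2, control 3, Folfiri 1 or Folfiri 2), where the log2 fold change lay between 0.13 and 0.18. It was also lost without the filter on low counts (0.15, adjusted p = 0.148). With total counts, which shift all genes upward, the log2 fold change was 0.45 and passed the test (adjusted p = 0.000846).

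*Uhrf1*, which reads half-methylated CpG sites and brings DNMT1 to them (ENSMUSG00000001228; chr17:56303321-56323486, plus strand), was lower after Folfiri. The control samples held 151, 160 and 150 CPM and the Folfiri samples 116, 115 and 119 CPM. Every Folfiri sample was below every control sample, and each group was tight. The group means were 154 ± 5.20 and 116 ± 2.18 CPM, with a log2 fold change of -0.40 (SE 0.06; edgeR adjusted p = 0.000190). With total counts as the scale the difference was -0.12 and did not pass the test (adjusted p = 0.0952). *Gm5648*, a processed pseudogene, shares 98.3% of bases with *Uhrf1* over 1590 bp, so reads could have been split between them. The pseudogene was listed at 14.2 ± 0.469 CPM in control and 10.3 ± 1.11 CPM in Folfiri, and the log2 ratio of the mean levels was -0.40 for *Uhrf1* alone and -0.40 for both together.

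The balance of the reader and the copying enzyme was compared within each library. The log2 ratio of *Uhrf1* to *Dnmt1*, taken per exonic length so that library scaling drops out, was 0.24, 0.44 and 0.40 in control and -0.27, -0.25 and -0.13 in Folfiri. *Uhrf1* was the more abundant transcript per length in each control sample and *Dnmt1* in each Folfiri sample. This change of lead rests on the annotated exonic lengths (4259 bp for *Uhrf1*, 7377 bp for *Dnmt1*). In raw counts *Dnmt1* was above *Uhrf1* in every sample. The difference in log2 ratio between the groups, which the lengths do not affect, was -0.57 (SE 0.07; exact two-sided permutation test p = 0.1, adjusted over 4 ratios 0.133). With 3 samples against 3, 0.1 is the smallest p this test can give, so no ratio could pass the threshold.

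Genes listed with maintenance methylation also differed in direction. Of 9 listed genes 8 were tested, with 4 higher and 2 lower after Folfiri and a median log2 fold change of 0.42 (6 higher and 2 lower with total counts). The list also holds *Dnmt3l*, described below, and *Trdmt1*, so its counts and median are not of maintenance genes alone. *Trdmt1* had a log2 fold change of 0.33 (edgeR adjusted p = 0.153) and passed as higher with total counts (0.60, adjusted p = 0.0362). *Hells*, a chromatin remodeler needed for methylation of packed DNA, rose from 77.0 to 223 CPM (log2 fold change 1.53, edgeR adjusted p = 1.48e-06). Its partner *Cdca7* rose by 1.33 on the log2 scale, and the *Cdca7* homolog *Cdca7l* by 1.06. *Uhrf2*, the paralog of *Uhrf1*, went from 126 to 180 CPM, a log2 fold change of 0.51 opposite to that of *Uhrf1*. *Lig1*, the ligase that joins newly copied DNA and helps recruit UHRF1, fell from 149 to 48.0 CPM (log2 fold change -1.64, adjusted p = 9.28e-09), and *Usp7*, a deubiquitinase that stabilizes UHRF1 and DNMT1, went from 189 to 105 CPM (-0.84). *Pcna*, the sliding clamp that DNMT1 binds, was 360 and 344 CPM with a log2 fold change of -0.07 that did not pass the test (adjusted p = 0.423) and turned to 0.21 with total counts, where it passed as higher (adjusted p = 0.0148).

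Of the de novo enzymes, *Dnmt3a* (ENSMUSG00000020661; chr12:3806007-3914443, plus strand) was read at 73.8, 72.1 and 73.0 CPM in control and 67.2, 62.3 and 55.4 CPM in Folfiri. The control samples were nearly identical, and the Folfiri samples were spread below them. Mean levels were 73.0 ± 0.840 and 61.6 ± 5.94 CPM (log2 fold change -0.24, SE 0.08; edgeR adjusted p = 0.0187). With total counts, which shift all genes upward, the log2 fold change was 0.03 (adjusted p = 0.756). Relative to the median of all genes it was -0.26 under both scalings, a likeness that follows from such a shift by itself. The call was lost without Folfiri 2 (-0.24, adjusted p = 0.0547) and without Folfiri 3 (-0.17, adjusted p = 0.0580).

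*Dnmt3b* (ENSMUSG00000027478; chr2:153649450-153687730, plus strand), the de novo enzyme known for its part in early development and in CpG island methylation of tumors, rose from a low level. The counts were 90, 52 and 36 in the control samples and 160, 180 and 212 in the Folfiri samples. These are 3.24, 2.08 and 1.85 CPM against 5.37, 5.81 and 6.43 CPM. Control sample 1 was the highest control, and all Folfiri samples lay above it. The mean went from 2.39 ± 0.745 to 5.87 ± 0.536 CPM, 2.46 times the control level, with a log2 fold change of 1.27 (SE 0.20, 95% interval 0.83 to 1.71; edgeR adjusted p = 0.000145). Without control sample 1 it was 1.57. The log2 ratio of *Dnmt3a* to *Dnmt3b* per length was 2.80, 3.41 and 3.60 in control and 1.94, 1.72 and 1.40 in Folfiri, a difference of -1.58 (SE 0.29; exact two-sided permutation test p = 0.1, adjusted 0.133). *Dnmt3a* thus stayed the more abundant transcript in every sample, by a smaller margin in each Folfiri sample. *Dnmt3l*, the catalytically inactive cofactor of both in the germline, was listed at 0 in the controls and at a mean of 0.0316 CPM in Folfiri and was not tested.

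*Tet2* showed the widest change of the 10 genes. TET2 (ENSMUSG00000040943; chr3:133463679-133545139, minus strand) is a methylcytosine dioxygenase without a CXXC DNA-binding domain of its own. The control samples held 83.6, 87.7 and 96.2 CPM and the Folfiri samples 28.0, 31.7 and 19.8 CPM. The lowest control sample was above the highest Folfiri sample by more than the range within either group. The mean went from 89.2 ± 6.42 to 26.5 ± 6.11 CPM, so that the control level was 3.37 times the Folfiri level (log2 fold change -1.75, SE 0.15, 95% interval -2.08 to -1.43; edgeR adjusted p = 1.28e-06). Without Folfiri sample 3, the lowest, it was -1.58.

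*Tet3* (ENSMUSG00000034832; chr6:83362373-83459084, minus strand), the TET enzyme of the zygote and of many differentiated cells, went the other way. Its level was 68.3, 48.8 and 48.8 CPM in control and 94.4, 91.1 and 71.1 CPM in Folfiri. Control sample 1 and Folfiri sample 3 lay close to each other, and the remaining samples were well apart. On average the level was 55.3 ± 11.2 in control and 85.5 ± 12.6 CPM in Folfiri (log2 fold change 0.63, SE 0.14; edgeR adjusted p = 0.00210), and it was 0.81 without control 1 and 0.75 without Folfiri 3. *Tet1* (ENSMUSG00000047146; chr10:62804570-62908996, minus strand), the enzyme of pluripotent cells, had 0, 4 and 2 counts in control and 2, 2 and 5 in Folfiri. Its mean levels were 0.0876 and 0.0944 CPM, too few reads for a difference to be detectable at this depth.

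The makeup of the TET transcripts differed between the groups within each library. *Tet2* made up 54.8%, 63.9% and 66.1% of TET transcripts per length in the control samples and 22.7%, 25.6% and 21.5% in the Folfiri samples. *Tet3* made up 45.2%, 35.9% and 33.9% in control and 77.3%, 74.3% and 78.3% in Folfiri, and *Tet1* at most 0.180% in any sample. *Tet2* led in every control sample and *Tet3* in every Folfiri sample. The log2 ratio of *Tet3* to *Tet2* was -0.28, -0.83 and -0.96 in control and 1.77, 1.54 and 1.86 in Folfiri, a difference of 2.41 (SE 0.23; exact two-sided permutation test p = 0.1, adjusted 0.133). The summed TET level, with TMM scaling, was 8.60 ± 0.457 CPM per kb in control and 6.70 ± 1.09 CPM per kb in Folfiri. Unlike the shares and the ratio, this sum depends on the scaling between libraries. It was not tested and was not computed with total counts, so a lower sum cannot be concluded.

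**Figure D2:**
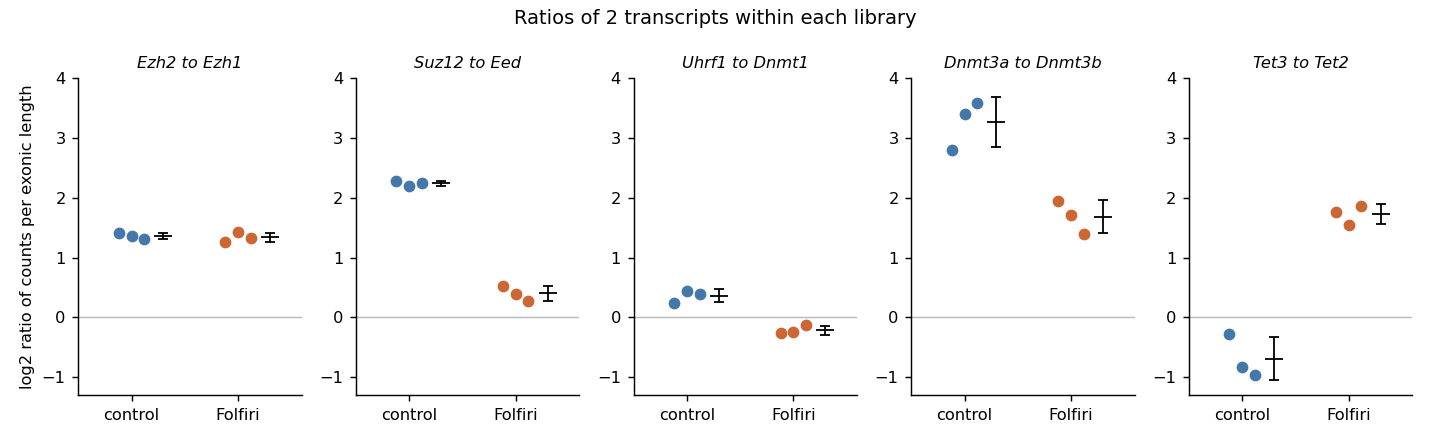
The log2 ratio of counts per exonic length for pairs of transcripts within each library, with a point for each of the 3 control and 3 Folfiri samples and bars for mean ± SD. Besides the 4 tested pairs, *Suz12* to *Eed* is shown, which was chosen after its values were seen and carries no test. *Tet3* to *Tet2* goes from below 0 in all controls to above 1.5 in all Folfiri samples, whereas *Ezh2* to *Ezh1* stays between 1.27 and 1.42 throughout.

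All 9 listed partners of the TET enzymes and genes that act on oxidized cytosine were tested. With TMM scaling 2 were higher and 7 lower (40.3% and 38.8% over all tested genes), with a median log2 fold change of -0.66. With total counts 2 were higher and 4 lower, with a median of -0.37. *Idh2* and *Idh1*, isocitrate dehydrogenases that make the 2-oxoglutarate TET enzymes consume, fell by 1.51 and 0.97 on the log2 scale, from 109 to 38.1 CPM and from 93.7 to 47.8 CPM. *Ogt*, the sugar transferase that binds TET proteins, went from 411 to 261 CPM (-0.66). *Neil1*, a DNA glycosylase, fell to 5.48 CPM from 11.01 CPM (log2 fold change -1.004), while the glycosylase *Smug1* rose from 22.7 to 41.2 CPM (0.86). *Tdg*, the glycosylase that removes oxidized methylcytosine, went from 158 to 131 CPM (log2 fold change -0.27, edgeR adjusted p = 0.00393), a difference that was 0.00 with total counts (adjusted p = 0.964).

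Among the PRC2 genes, *Suz12* (ENSMUSG00000017548; chr11:79993106-80034123, plus strand) had the highest level per length of the 10 genes in control and fell further than *Ezh1* and *Ezh2*. The control samples held 358, 353 and 375 CPM and the Folfiri samples 160, 155 and 147 CPM. Both groups were tight and far apart. The mean went from 362 ± 11.7 to 154 ± 6.65 CPM, a control level 2.35 times the Folfiri level (log2 fold change -1.23, SE 0.07, 95% interval -1.39 to -1.07; edgeR adjusted p = 1.01e-07). It stayed between -1.26 and -1.20 whichever sample was left out, and was -0.95 with total counts.

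*Ezh2* (ENSMUSG00000029687; chr6:47530139-47595341, minus strand), the main H3K27 methyltransferase of dividing cells, was lower after Folfiri. Its level was 162, 190 and 191 CPM in control and 128, 132 and 131 CPM in Folfiri, without overlap. The mean levels were 181 ± 16.2 and 131 ± 2.19 CPM (log2 fold change -0.47, SE 0.08; edgeR adjusted p = 0.000230), and the call held with total counts at -0.19 (adjusted p = 0.0143). *Ezh1* (ENSMUSG00000006920; chr11:101191115-101226463, minus strand), its weaker counterpart, held 68.0, 82.4 and 85.6 CPM in control and 59.4, 55.0 and 58.1 CPM in Folfiri. The lowest control, sample 1, was still above all Folfiri samples. Means of 78.7 ± 9.39 in control and 57.5 ± 2.26 CPM in Folfiri gave a log2 fold change of -0.45 (SE 0.09; edgeR adjusted p = 0.00102), and with total counts the value of -0.17 did not pass the test (adjusted p = 0.0703).

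The catalytic pair kept nearly the same proportion. Per length there were 2.66, 2.57 and 2.48 *Ezh2* transcripts for each *Ezh1* transcript in control and 2.404, 2.68 and 2.52 in Folfiri. The ranges overlapped, and the log2 ratio differed by -0.02 (SE 0.05; exact two-sided permutation test p = 0.8, adjusted 0.8). *Suz12* instead fell relative to the other core subunits. The ratio of *Suz12* to *Eed*, the core subunit that reads methylated H3K27, was 4.86, 4.57 and 4.75 per length in control and 1.45, 1.32 and 1.21 in Folfiri. *Suz12* to *Ezh2* differed by -0.76 on the log2 scale. Both *Suz12* ratios were chosen after their values were seen and carry no test.

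*Eed* itself rose. It was read at 57.0, 59.7 and 61.1 CPM in control and 85.7, 91.3 and 94.1 CPM in Folfiri, and its log2 fold change was 0.61 (SE 0.07; edgeR adjusted p = 1.63e-05). All 9 listed further PRC2 subunits were tested and called, 5 higher and 4 lower, with a median log2 fold change of 0.19. With total counts, 5 were higher and 3 lower. The histone chaperones *Rbbp4* and *Rbbp7* went up by 0.59 and 0.19 on the log2 scale, *Mtf2*, which anchors PRC2 at CpG islands, by 0.64, and *Epop*, a subunit of the same PRC2.1 form, by 0.72. *Jarid2*, which guides the PRC2.2 form, fell from 138 to 47.1 CPM (log2 fold change -1.55, adjusted p = 7.84e-08), and *Phf19*, a PRC2.1 subunit, fell from 13.6 to 4.10 CPM (-1.74). *Phf1* went from 16.4 to 10.1 CPM (-0.70), with 39.3% of its exonic length under *Cuta* on the opposite strand. *Aebp2*, the partner of JARID2 in PRC2.2, was -0.23 and turned to 0.04 with total counts.

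**Figure D3:**
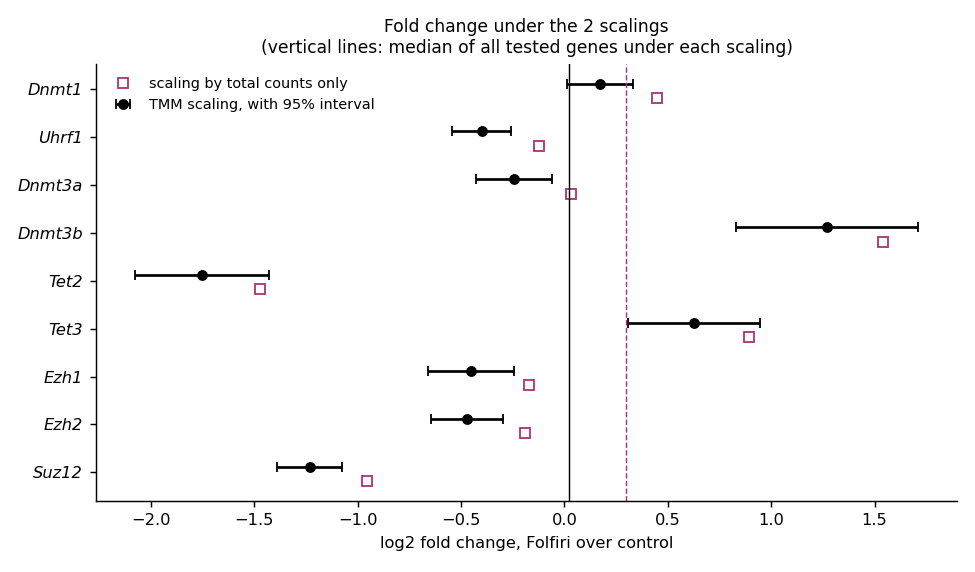
Log2 fold change of Folfiri over control for the 9 tested genes under TMM and under total counts, with 95% intervals and vertical lines at the median of all tested genes (0.02 and 0.30). *Tet2*, *Suz12*, *Dnmt3b* and *Tet3* keep their side of 0 under both, and *Dnmt3a* changes sides.

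A change of scaling moves all genes by nearly the same amount, and measuring from the median of all genes takes that amount out. Fold changes measured in this way are therefore nearly the same under both scalings by construction, which does not decide between the scalings. Relative to that median *Tet2* was at -1.77, *Suz12* at -1.25, *Ezh2* at -0.49, *Ezh1* at -0.47, *Uhrf1* at -0.42 and *Dnmt3a* at -0.26 on the log2 scale with TMM. On the same scale *Dnmt1* was at 0.15, *Tet3* at 0.61 and *Dnmt3b* at 1.25. With total counts *Tet3* was at 0.60 and *Dnmt3b* at 1.24, and the other values were the same to 2 decimals.

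Order of abundance was compared in CPM per kb of exonic length. In control, *Suz12* was first at 73.2 ± 2.37 CPM per kb, followed by *Uhrf1* at 36.1 ± 1.22, and then by *Dnmt1* at 28.1 ± 1.66 and *Ezh2* at 27.1 ± 2.43, whose samples overlapped. *Ezh1* at 10.6 ± 1.26, *Tet2* at 5.29 ± 0.381, *Dnmt3a* at 4.38 ± 0.0505 and *Tet3* at 3.31 ± 0.674 CPM per kb formed the middle. *Dnmt3b* at 0.468 ± 0.146 and *Tet1* at 0.00567 CPM per kb were last. In Folfiri, *Dnmt1* at 31.8 ± 1.0498 and *Suz12* at 31.2 ± 1.35 CPM per kb overlapped at the top. *Uhrf1* at 27.3 ± 0.511 and *Ezh2* at 19.5 ± 0.328 came next, then *Ezh1* at 7.72 ± 0.304, *Tet3* at 5.12 ± 0.754 and *Dnmt3a* at 3.70 ± 0.357 CPM per kb. *Tet2* at 1.57 ± 0.362 overlapped *Dnmt3b* at 1.15 ± 0.105, and *Tet1* was again last at 0.00611 CPM per kb. Exonic lengths are the union of all annotated exons, so a gene with many unused exons reads low on this scale.

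The genes whose pattern over the 6 samples was most like that of the 3 widest movers were named by the smallest root mean square difference of centred log2 CPM. For *Tet2* these were *Gm38394* (0.0854), *Gm7957* (0.0901) and *Col14a1* (0.0942). *Gm7957* had only 0.647 CPM in control and 0.140 CPM in Folfiri, where the counts added before taking logs damp the differences, so its likeness is uncertain. For *Dnmt3b* they were *Tefm* (0.0612), *Syt16* (0.0635) and *Fam185a* (0.0642). For *Suz12* they were *Phf21a* (0.0284), *Eml4* (0.0357) and *Rsbn1l* (0.0360). The log2 fold changes of these genes lay between -2.17 and -1.64 for *Tet2*, between 1.198 and 1.299 for *Dnmt3b*, and between -1.270 and -1.201 for *Suz12*.

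Genes that oppose or complete the Polycomb mark were read from lists. Polycomb repressive complex 1 (PRC1), which places ubiquitin on histone H2A and compacts chromatin, had 23 listed subunits, all tested, of which 9 were higher and 7 lower with a median log2 fold change of 0.08 (0.02 without control 1 and 0.03 without control 3). With total counts, where calls over all genes also move toward higher, the split was 12 higher and 3 lower. The median was then 0.36, against 0.30 over all tested genes. *Pcgf6* and *L3mbtl2*, both of the PRC1.6 form, rose from 17.1 to 57.8 CPM (log2 fold change 1.75) and from 30.1 to 88.8 CPM (1.56), the latter with 17.2% of its exonic length under *Chadl*. *Cbx2*, a reader of methylated H3K27, rose by 1.18. *Phc1* and *Pcgf5* fell by 1.06 and 0.92 on the log2 scale. *Rnf2*, the main ubiquitin ligase of PRC1, went from 65.5 to 53.9 CPM (log2 fold change -0.28, edgeR adjusted p = 0.00907), which was near 0 with total counts. Of the H3K27 demethylases, *Kdm6a* fell from 71.8 to 30.5 CPM (-1.23) and *Kdm6b* from 184 to 113 CPM (-0.70). Together with genes of the BAP1 complex, which removes the PRC1 mark, 3 of 7 tested were higher, among them *Foxk1* (0.83) and *Bap1* (0.64), and 4 lower, with a median of -0.31. With total counts 3 were higher and 2 lower, and the median was -0.03 (0.30 over all tested genes). *Foxk2*, at -0.40 with TMM, was then at -0.12 without passing the test (adjusted p = 0.135).

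**Figure D4:**
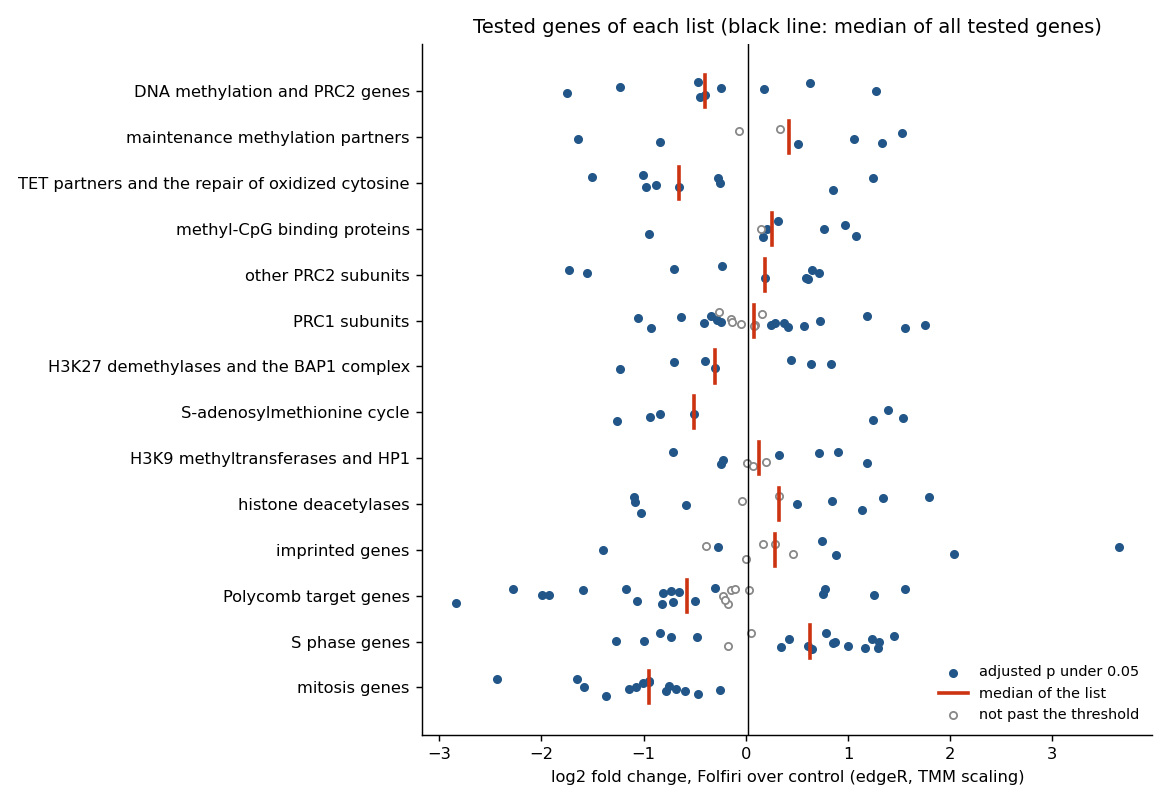
Log2 fold change of each tested gene in the 10 genes and in the lists of partners, counterparts and targets, with the list median and a line at the median of all tested genes (0.02). All 15 mitosis genes lie below 0, and the PRC1 and PRC2 lists spread to both sides.

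*Hox* genes and the *Cdkn2a* locus are the textbook targets of PRC2. Of 41 listed targets 24 were tested, with 4 higher and 14 lower after Folfiri and a median log2 fold change of -0.57. With total counts 4 were higher and 12 lower with a median of -0.30, and the median was -0.20 without the filter on low counts. *Hoxb9*, a posterior *Hox* gene, was read at 864, 991 and 952 CPM in control and 136, 126 and 129 CPM in Folfiri. The groups were far apart, with a log2 fold change of -2.84 (SE 0.09; edgeR adjusted p = 2.97e-09). *Hoxa9* fell from 365 to 75.4 CPM (-2.28) and *Hoxa10* from 207 to 52.1 CPM (-1.99). The genes that were higher had few reads: *Hoxd9* went from 1.61 to 2.72 CPM (0.78) and *Hoxa6* from 1.07 to 1.83 CPM (0.75). Of the 22 *Hox* genes tested, the 13 with a mean of at least 10 CPM held 10 lower and 0 higher calls (median -1.07), and the 9 under 10 CPM held 3 lower and 4 higher (median 0.03). This division was chosen after the values were seen and is a description. By cluster, of 11 tested *HoxA* genes 2 were higher and 7 lower, of 8 tested *HoxB* genes 0 were higher and 6 lower, of 3 tested *HoxD* genes 2 were higher and 0 lower, and of 9 *HoxC* genes none passed the filter on low counts. *Cdkn2a*, the p16 and ARF tumor suppressor locus, went from 140 to 113 CPM (log2 fold change -0.30, adjusted p = 0.00882), and with total counts it was -0.02 (adjusted p = 0.777).

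**Figure D5:**
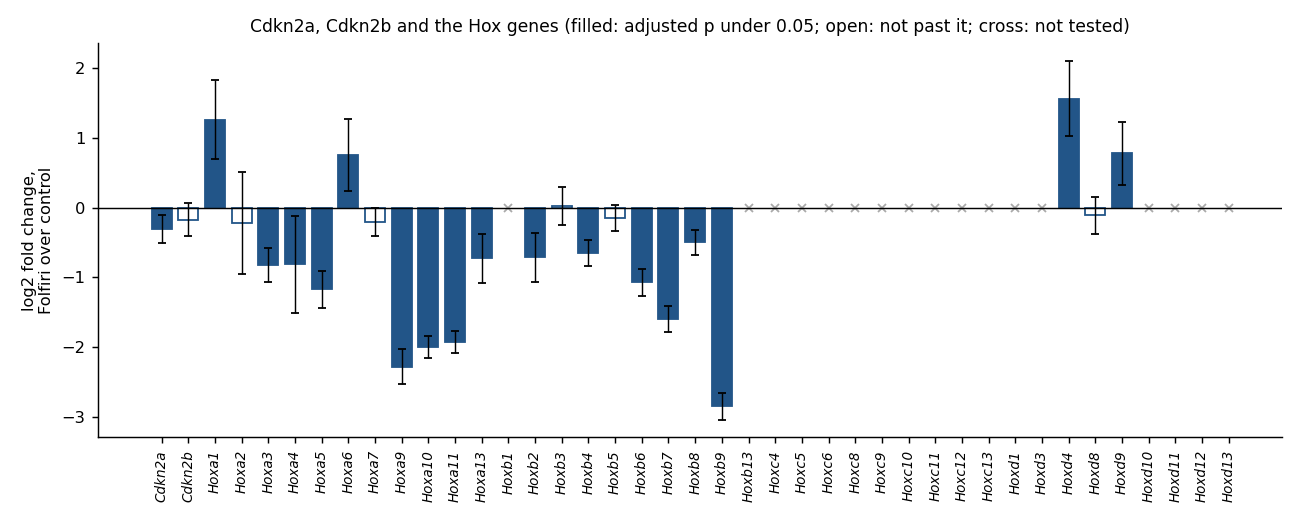
Log2 fold change of Folfiri over control for *Cdkn2a*, *Cdkn2b* and the 39 *Hox* genes with TMM scaling, where filled symbols passed the test, open ones did not and crosses were not tested. *Hoxb9* is lowest at -2.84, and the *HoxC* genes are all untested.

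Markers of proliferation also differed between the groups. All 15 listed mitosis genes were lower (median log2 fold change -0.95; 14 with total counts, with *Kif20a* turning to 0.03), among them *Ccnb2* (-2.43), *Top2a* (-1.65) and *Mki67*, which went from 735 to 246 CPM (-1.58, edgeR adjusted p = 1.72e-07). Of 20 S phase genes 13 were higher and 5 lower (median 0.63), with *Rpa2* (1.46), *Mcm2* (1.31) and *Tyms*, the target of 5FU (1.29), among the higher and *Pola1* (-1.27) and *Rrm1* (-0.998) among the lower. The 9 tested methylation and PRC2 genes went to both sides, with 6 lower and 3 higher (3 and 3 with total counts). Of all tested genes 38.8% were lower and 40.3% higher. The part of the cell cycle in the values of the 10 genes was not tested.

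Markers of the organoid epithelium and of other cell types were read beside these results. The epithelial markers other than *Krt20* were high in every sample. Their list had a summed level of 5812 to 6793 CPM in control and 4763 to 4937 CPM in Folfiri, and of 8 tested 1 was higher and 4 lower (1 and 3 with total counts). *Epcam* fell from 1252 to 653 CPM (log2 fold change -0.94, edgeR adjusted p = 7.17e-06), and *Krt20*, a marker of mature colon cells, was at 1.15 to 1.58 CPM over all samples. Immune markers summed to 0.640 to 0.720 CPM in control and 1.52 to 1.65 CPM in Folfiri, and only 1 of 7, *Ptprc*, passed the filter on low counts and was higher (13, 9 and 7 counts in control, 33, 35 and 31 in Folfiri), while *Lyz2* and *Tyrobp* had at most 2 counts in any sample. Of the other immune markers in the table *Cd79a* had 3, 3 and 3 counts in control and 5, 10 and 8 in Folfiri, *Coro1a* 3, 3 and 2 against 3, 6 and 8, and *Laptm5* 1, 0 and 0 against 8, 0 and 1. Fibroblast markers summed to 1.08 to 1.44 CPM and 1.97 to 2.41 CPM, with 2 of 3 tested higher and 1 lower. *Dcn* had 2, 0 and 0 counts in control and 19, 26 and 20 in Folfiri, *Pdgfra* 11, 7 and 10 against 40, 31 and 36, and *Col1a1*, the lower one, 17, 26 and 17 against 11, 9 and 8, while *Col1a2* and *Col3a1* were at 0 to 2 counts in any sample. Endothelial markers summed to 72.2 to 125 CPM in control and 65.5 to 76.2 CPM in Folfiri, nearly all of it *Cdh5*, while *Pecam1* averaged 0.470 and 0.459 CPM and *Kdr* was at 0 in the controls. The part of these markers in the values of the 10 genes was not tested.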

How the data were processed

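The authors aligned reads to GRCm38 with STAR 2.5.2 (per the labels) and counted them per gene of GENCODE vM25 with Rsubread; the deposited values are raw whole-number counts of 24190 Ensembl genes in 6 samples. Libraries were poly(A)-selected. The strand setting and the treatment of reads with several matches are not given in the sources used here. Symbols came from GENCODE vM21 (24168 IDs matched). Genes kept by filterByExpr were tested with edgeR 4.0.16 (quasi-likelihood test, TMM, R 4.3.3), Folfiri against control, with Benjamini-Hochberg adjustment over all 14692 tested genes and a threshold of 0.05. Total counts per sample were 22103591 to 30098210.

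CPM are counts over TMM-scaled library sizes, divided by the union exon length where given per kb. Ratios of transcripts used the exact two-sided permutation test. DESeq2 1.42.0, other scalings, no filter, a replicate block and fits without each sample were the alternatives; adding the pseudogene counts to *Uhrf1* was chosen after seeing the data. Copies of the genes were searched with BLAST 2.17.0 against annotated transcripts. Antisense or noncoding genes that overlap the 10 genes had at most 13 counts in any sample.

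The 10 genes and the lists were chosen with earlier results of these data known. Named were the 10 genes; from each list up to 3 genes per direction with the largest change among called genes with at least 1 CPM and groups that do not overlap; *Eed*, *Rnf2*, *Tdg*, *Cdkn2a*, *Mki67* and *Pcna*; and the 3 genes most like each of the 3 widest movers. *Uhrf2*, *Dnmt3l*, *Trdmt1*, *Ogt*, *Rbbp4*, *Rbbp7*, *Aebp2*, *Kif20a*, *Cdkn2b* and the markers were added for their role after their values were seen. Same-numbered samples did not deviate together (correlations 0.0267, -0.117 and 0.0393), so the numbers were not taken as pairs. Some items of the genotype and of the named genes are not reported here.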

Additional observations from a re-analysis of the deposited data

How the results depend on the processing

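DESeq2 called the same 9 genes, 3 higher and 6 lower. *Tet2*, *Tet3*, *Dnmt3b*, *Suz12* and *Ezh2* kept direction and call under all 7 alternatives to the fit and in all 6 fits that left out a sample, where *Tet2* ranged from -1.90 to -1.58, *Tet3* from 0.53 to 0.81, *Dnmt3b* from 1.12 to 1.57, *Suz12* from -1.26 to -1.20 and *Ezh2* from -0.54 to -0.44 (log2). Scaling to total counts took *Dnmt3a* to 0.032 and ended the calls of *Uhrf1* (-0.12) and *Ezh1* (-0.17), leaving 3 genes called lower. Upper quartile scaling took *Dnmt3a* to -0.19 (edgeR adjusted p = 0.0577). *Dnmt1* lost its call without the filter on low counts (0.15, adjusted p = 0.148), and with the replicate block it was 0.18 (adjusted p = 0.0743), each leaving 2 genes higher. The block changed no other call of the 9, and the cause was not tested. Leaving out samples moved *Dnmt1* from 0.13 to 0.22, *Dnmt3a* from -0.31 to -0.17, the number of genes lower from 5 to 6, the number higher from 2 to 3, and the difference in log2 *Ezh2* to *Ezh1* ratio from -0.063 to 0.016. The median of the germline list, -0.48 over 2 tested genes, was 3.005 without the filter, which admits genes at 0 in control. For *Tet1*, *Dnmt3l* and most germline genes the depth is too low to read a change.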

Other observations

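The counts below for genes that read or feed DNA methylation stand beside 79.1% of all tested genes called. Of 8 methyl-CpG binding proteins, all tested, 6 were higher and 1 lower (median log2 fold change 0.26; 7 and 1 with total counts): *Zbtb4* rose from 12.6 to 26.8 CPM (1.08), *Mbd1* from 40.01 to 78.6 CPM (0.97) and *Zbtb38* from 42.7 to 72.9 CPM (0.77), while *Zbtb33*, which encodes Kaiso, fell from 62.9 to 32.7 CPM (-0.95). The S-adenosylmethionine cycle supplies the methyl group for both DNA and histone methylation. Of its 7 tested genes 3 were higher and 4 lower (median -0.50; -0.23 with total counts and -0.030 without the filter on low counts). *Mat2a*, which makes S-adenosylmethionine, rose from 132 to 384 CPM (1.54; 11.3% of its exonic length lies under *Particl*), and *Mtrr* (1.40) and *Mtr* (1.24), which regenerate methionine, rose with it. *Ahcy*, which clears the product S-adenosylhomocysteine, fell from 436 to 183 CPM (-1.26), as did its homologs *Ahcyl1* (-0.94) and *Ahcyl2* (-0.84).

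Of 10 genes of the histone H3 lysine 9 system 4 were higher and 3 lower (median 0.13, and 0.20 without Folfiri 3; 7 and 1 with total counts). *Setdb1* (1.19), *Setdb2* (0.90) and *Suv39h2* (0.72) rose, *Ehmt2*, which encodes G9a, fell from 351 to 215 CPM (-0.71), and the HP1 genes *Cbx1* (-0.25) and *Cbx3* (-0.22) turned to values just above 0 with total counts. Of 11 histone deacetylases 5 were higher and 4 lower (median 0.32, and 0.18 without Folfiri 1; 7 and 3 with total counts), with *Hdac10* (1.79), *Hdac9* (1.35) and *Hdac1* (1.13) up and *Hdac3* (-1.09), *Hdac5* (-1.09) and *Hdac6* (-1.02) down. *Hdac1* went from 87.5 to 192 CPM and *Hdac3* from 85.9 to 40.3 CPM.

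Among genes usually held silent by promoter methylation, 2 of 16 listed germline genes passed the filter on low counts, 0 were higher and 1 lower, and 9 of the 13 in the table were at 0 in all controls. *Taf7l*, picked after its values were seen, had 0, 0 and 0 counts in control and 6, 6 and 8 in Folfiri. Of 20 imprinted genes 11 were tested, 4 higher and 2 lower (median 0.29, and 0.72 without the filter on low counts; 6 and 1 with total counts). *Plagl1* rose from 0.706 to 8.66 CPM (log2 fold change 3.66, edgeR adjusted p = 1.40e-07), *Impact* from 2.33 to 9.59 CPM (2.04) and *Grb10* from 2.19 to 4.04 CPM (0.88), while *Kcnq1ot1*, antisense to *Kcnq1*, went from 4.03 to 1.496 CPM (-1.39). *Igf2r* was at -0.27 and turned to 0.00 with total counts. DNA methylation itself was not measured in these libraries.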
